A study of Rattus norvegicus with 4 samples.

Results

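The cluster of miR-143 and miR-145 is a pair of neighbouring miRNA hairpins, rno-mir-143 and rno-mir-145, described here in rat (SD, Sprague-Dawley) exosomes, which are small vesicles shed by cells. Its members were all tags, that is, all distinct read sequences, that the deposited files place on either hairpin, which are 2 of the 302 named miRNA hairpins with a tag in any library. Exo-AT libraries hold vesicle RNA of adipose tissue explants from animals aged 4 weeks, minced and stirred in a spinner flask for 3 days in 75 mL of medium, and Exo-ADSCs libraries hold vesicle RNA of adipose stem cells at passage 3, kept for 3 days without serum. The labels give no genotype or treatment beyond this, and nothing says whether the 2 libraries per group came from separate animals or cultures, so a p-value measures only the spread between these libraries, which may be technical. Explants hold all cell types of the tissue, and the labels do not say which of them shed the vesicles.

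Counts per tag were used for Exo-ADSCs replicate 2, called the stem cell library below (715114 counts on hairpins, of which 97204 on named miRNA hairpins), Exo-AT replicate 1 (15200 and 9134) and Exo-AT replicate 2 (181049 and 136024). The other counts lay on hairpins that the authors predicted themselves, which took 86.4% of the counts in the stem cell library and 39.9% and 24.9% in the Exo-AT libraries. Since no counts per tag of Exo-ADSCs replicate 1 were used, Exo-ADSCs has 1 library and no SD. Both Exo-AT files carry the same sample name inside. The miRNA composition of these 2 libraries differed beyond counting noise (chi-square 1494 with 78 degrees of freedom over 79 named miRNAs), so they were kept as 2 libraries. Within miR-143-3p the same comparison over its 14 best-covered tags found a chi-square of 16.9 with 13 degrees of freedom (p = 0.203), and it compares those libraries only. Whether the 2 libraries are independent samples was not tested.

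A miRNA is cut from a hairpin precursor into a short duplex, and one strand of it, usually the same one, is loaded into an Argonaute protein, where bases 2 to 8 of the strand, the seed, pair with target mRNAs. miR-143 and miR-145 are made from a common primary transcript and are best known from smooth muscle cells and pericytes, where they favour the contractile state. Their known targets there include the transcription factors Klf4 and Klf5 (miR-145) and Elk1 (miR-143). In fat, miR-143 rises as preadipocytes differentiate and promotes adipogenesis.

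In RefSeq (assembly GRCr8) the hairpins lie on the minus strand of chromosome 18, rno-mir-143 at chr18:57371349-57371453 and rno-mir-145 at chr18:57369983-57370070, 1278 bases apart. Both fall inside the span of the lncRNA gene Carmn, also named Mir143hg, with exons not examined here. The deposited hairpin sequences equal the RefSeq hairpins for both, although the submitters' processing notes name the rn6 assembly. All 4 mature arms are shown because the seeds of the arms differ from one another. Capitals mark the seed, 5′ to 3′.
rno-miR-143-3p: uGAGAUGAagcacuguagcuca
rno-miR-143-5p: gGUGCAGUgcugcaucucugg
rno-miR-145-5p: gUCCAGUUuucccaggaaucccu
rno-miR-145-3p: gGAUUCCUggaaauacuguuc

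The cluster was almost entirely miR-143-3p. miR-143-3p, the loaded arm of its hairpin, had 15143 counts in the stem cell library against 1764 and 17539 in Exo-AT replicates 1 and 2. It ranked 2nd, 2nd and 3rd among the named miRNAs of these libraries. miR-143-5p, the opposite arm, had 0 counts in every library, which allows a share of named counts of up to 0.00309%, 0.0328% and 0.00221%, in the same order. None of the tags of either hairpin aligned to another hairpin in the files. Reads carry no molecular identifiers, so these limits and the Wilson 95% intervals given with shares cover counting error only.

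Whether miR-143-3p was higher in one kind of vesicle depended on what it was counted against. Of named miRNA counts it took 15.6% in the stem cell library (interval 15.4 to 15.8) but 19.3% (18.5 to 20.1) and 12.9% (12.7 to 13.1) in Exo-AT replicates 1 and 2. On this scale the stem cell library fell between the Exo-AT libraries, so the groups overlapped. Of the counts on all hairpins, predicted ones included, it took 2.12% in the stem cell library against 11.6% and 9.69% in Exo-AT, so that both Exo-AT libraries were higher. After TMM scaling, which sets library sizes by the bulk of the tested miRNAs, it was at 235991 CPM, a count scaled to the named counts of its library, in the stem cell library and at 139432 and 119303 CPM in Exo-AT (129367 ± 14234, SD, n = 2). Here both Exo-AT libraries were lower, as the bars of its level on the 3 scales show.

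**Figure D1:**
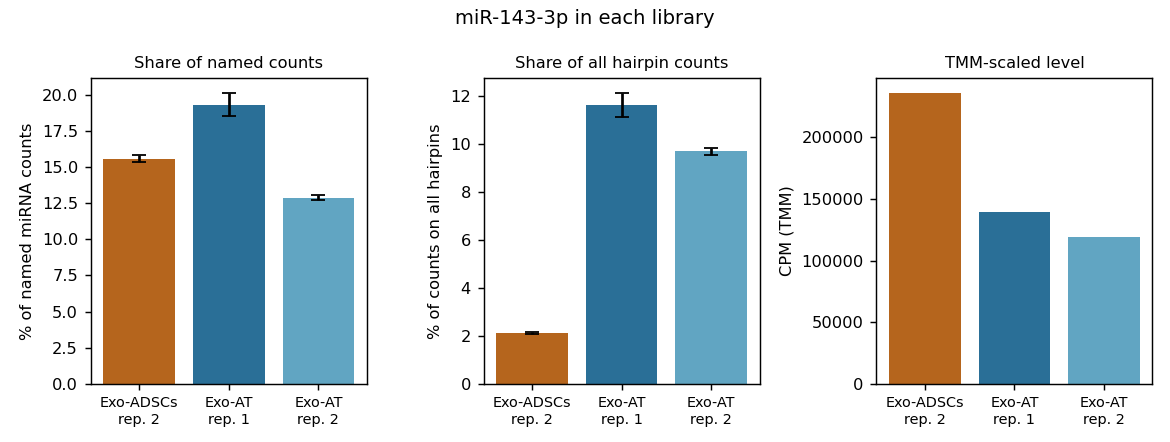
Level of miR-143-3p in Exo-ADSCs replicate 2 and Exo-AT replicates 1 and 2: left, percent of named miRNA counts; middle, percent of counts on all hairpins, predicted included; right, TMM-scaled level in CPM. Bars are single libraries, and error bars in the left and middle panels are Wilson 95% intervals (counting error); the order of the groups differs between the panels, with Exo-ADSCs between the Exo-AT libraries on the left (15.6% against 19.3% and 12.9%) and lowest in the middle (2.12%).

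By edgeR's quasi-likelihood test with TMM scaling, miR-143-3p was lower in Exo-AT by a log2 fold change of -0.87 (SE 0.24, adjusted p = 0.00141 by Benjamini-Hochberg over 183 miRNAs). The same fit called 38.3% of the 183 miRNAs tested, 35 higher and 35 lower, and 77% had groups that did not overlap in TMM-scaled CPM. Only the Exo-AT pair gave the fit a spread, and the lone stem cell library was assumed to vary like that pair. With total counts of named miRNAs as library size its log2 fold change was 0.042 (SE 0.59, adjusted p = 0.958, edgeR), and 35.5% of all tested miRNAs were called, 25.1% higher in Exo-AT and 10.4% lower. With counts on all hairpins as library size, a setting chosen after the data were seen, it was 2.33 (SE 0.40, adjusted p = 1.15e-07, edgeR), a scale on which 66.3% of 169 miRNAs were called, 63.3% higher in Exo-AT and 2.96% lower. Over every tested miRNA, the median log2 fold change was 0.37, 1.21 and 3.88 on these scales, and miR-143-3p lay below that median on each. With tags of 20 to 25 nt only, the length range around intact miRNAs, the log2 fold change was -1.75 (SE 0.35, adjusted p = 0.0102, edgeR). On those tags 30 of 130 tested miRNAs were called higher in Exo-AT and 29 lower (edgeR). There miR-143-3p took 34.4% of named counts in the stem cell library against 23.3% and 14.8% in Exo-AT, and the groups no longer overlapped. How many of all miRNAs had groups without overlap was not counted on these tags. With all tags and TMM scaling it was the 77% given above, so the lack of overlap does not set miR-143-3p apart. The range left out a larger part of the stem cell library's other named reads, of which 18.1% were 21 to 23 nt long. In Exo-AT 68.7% and 74.8% of the other named reads had that length. The call was lost with DESeq2 (-1.11, adjusted p = 0.0697) and with limma-trend (-0.87, adjusted p = 0.124).

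**Figure D2:**
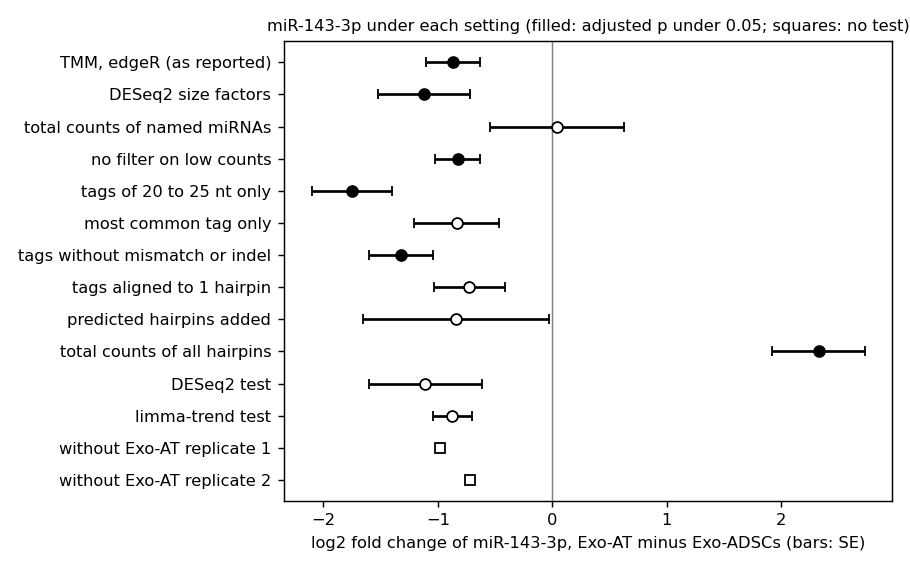
Log2 fold change of miR-143-3p, Exo-AT minus Exo-ADSCs, under each setting; circles carry standard errors, filled circles passed an adjusted p of 0.05, and squares have no test. Most settings lie below 0, total counts of named miRNAs at 0.042 and total counts of all hairpins at 2.33.

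miR-145 was rare beside its neighbour. miR-145-5p, the arm known to repress Klf4 and Klf5, had 34 counts in the stem cell library and 0 and 21 in Exo-AT replicates 1 and 2. miR-145-3p had 14, 0 and 3. Both arms together made 0.316% of the cluster's counts in the stem cell library (interval 0.238 to 0.419) and 0.137% in Exo-AT replicate 2 (0.0918 to 0.203), which is 315 and 731 counts of miR-143 for each count of miR-145. In Exo-AT replicate 1 the 0 of 1764 counts allows up to 0.170%, below the interval of the stem cell library and inside that of Exo-AT replicate 2. The files list no tag with fewer than 2 reads, so this limit may be too low. At the other libraries' shares of named counts, 3.19 (stem cell library) or 1.41 (Exo-AT replicate 2) counts of miR-145-5p alone would have been present there. For that arm alone, a difference from the others was not detectable at this depth.

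Neither arm of miR-145 passed the test. miR-145-5p was at 530 CPM after TMM scaling in the stem cell library and at 0 and 142.8 CPM in Exo-AT, a log2 fold change of -2.24 (SE 1.09, adjusted p = 0.0947, edgeR). With DESeq2 size factors it passed (-2.57, adjusted p = 0.0391, edgeR), where 41.5% of all tested miRNAs were called, 16.9% higher in Exo-AT and 24.6% lower. With counts on all hairpins as library size its log2 fold change was 0.92 (adjusted p = 0.553, edgeR). miR-145-3p rested on 3 counts in Exo-AT, and the stem cell library was 11.6 times higher after TMM scaling with an exact (Clopper-Pearson) counting interval of 3.24 to 63.0 (adjusted p = 0.249, edgeR).

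The miR-145-5p reads began at the annotated base in 34 of 34 and 21 of 21 counts but differed in where they ended. The 2 forms below are shown because they carry most of that difference, with capitals marking the bases beyond the 20th.
miR-145-5p, 23 nt: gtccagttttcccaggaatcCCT
miR-145-5p, 19 nt: gtccagttttcccaggaat
The full form of 23 nt had 3 counts in the stem cell library and 16 in Exo-AT replicate 2, or 8.82% (interval 3.05 to 22.96) and 76.2% (54.9 to 89.4) of the arm's counts. The 19 nt form had 11 counts in the former and 0 in the latter. Mean read length was 19 nt and 21.6 nt. Over all named miRNAs but miR-143-3p the mean length was 19.6 nt in the stem cell library and 20.8 and 21.2 nt in Exo-AT.

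The miR-145-3p reads did not begin where the arm is annotated. The reads shown here are all of its forms, with capitals marking their own bases 2 to 8.
miR-145-3p, 21 nt: aTTCCTGGaaatactgttctt
miR-145-3p, 18 nt, same start: aTTCCTGGaaatactgtt
miR-145-3p, 18 nt, later start: tCCTGGAAatactgttct
The first had 9 counts in the stem cell library, the second 3 counts in Exo-AT replicate 2, and both start 2 nt after the RefSeq start. The third had 5 counts in the stem cell library and starts 4 nt after it. No read of this arm carried the annotated seed, which with 17 counts in all is a thin basis.

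**Figure D3:**
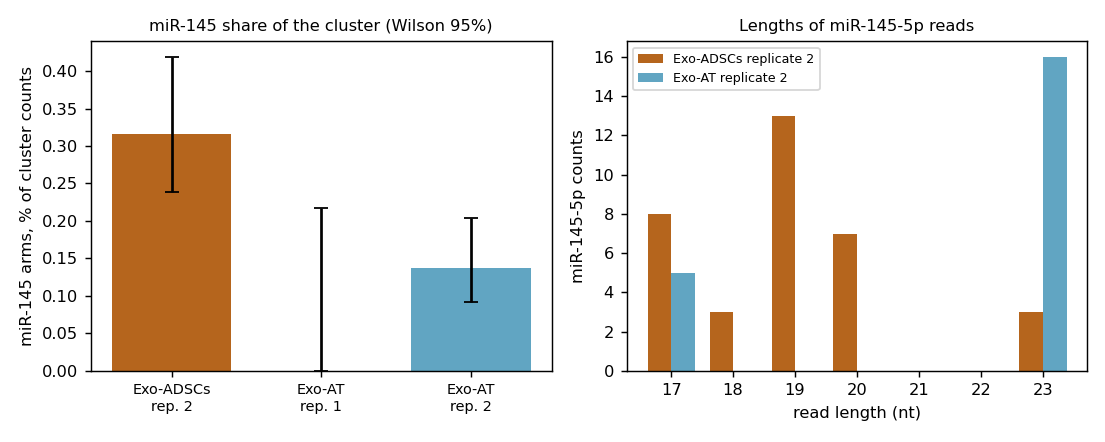
Left, both arms of miR-145 as a percent of the cluster's counts in each library, with Wilson 95% intervals; right, counts of miR-145-5p by read length in the 2 libraries that hold it. The share was 0.316% for Exo-ADSCs replicate 2 against 0.137% for Exo-AT replicate 2, and the 23 nt form made 16 of 21 counts in the latter and 3 of 34 in the former.

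The read forms of miR-143-3p differed between the kinds of vesicle far more than between the Exo-AT libraries. Summing the differences in share over all tags, with equal weight to gains and losses, 4.59% of the reads would have to change form to turn the profile of one Exo-AT library into the other. The corresponding value was 33.6% and 34.1% between the stem cell library and the Exo-AT libraries. Each of the 10 other abundant miRNAs compared in this way also differed more between the kinds of vesicle than between the Exo-AT libraries. Their values against the stem cell library ran from 33.7% to 90.5% for Exo-AT replicate 1 and from 31.3% (miR-21-5p) to 90.2% (miR-486-5p) for replicate 2, so miR-143-3p was among the least changed. With 1 Exo-ADSCs library, none of the differences in form below has a test across conditions. The forms that differ at the 3′ end are shown first, with capitals marking the bases beyond the 20th.
20 nt: tgagatgaagcactgtagct
20 nt plus T: tgagatgaagcactgtagctT
21 nt: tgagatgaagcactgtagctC
21 nt plus T: tgagatgaagcactgtagctCT
22 nt, as annotated: tgagatgaagcactgtagctCA

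The 21 nt form, 1 base short of the annotated one, had a similar share in all 3 libraries. It made 33.2% of miR-143-3p counts in the stem cell library and 35.8% and 34.9% in Exo-AT replicates 1 and 2. The 20 nt form made 35.5% in the stem cell library but 10.3% and 9.24% in Exo-AT. Counting all 20 nt reads of the arm, the shares were 37.2% (interval 36.4 to 37.95) against 14.3% (12.7 to 15.996) and 14.4% (13.9 to 15.0). The annotated 22 nt form was a minor one in every library, at 3.17%, 2.15% and 1.90%. Mean read length was 20.8 nt in the stem cell library and 21.2 nt in each Exo-AT library, so the arm's reads were shorter in the stem cell library by 0.32 nt. Among the 12 named miRNAs that had 100 counts or more in all 3 libraries, the median of this length difference was 0.73 nt, from -2.15 to 2.82, and that of miR-143-3p was the 7th highest. In the share of 20 nt reads miR-143-3p fell furthest of these 12, by 22.8 percentage points from Exo-ADSCs to the Exo-AT mean, where the median miRNA gained 2.40.

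The other large form was the 21 nt read with a T at its end, where the hairpin encodes an A (A22T, counted from 1 at the read's 5′ end). A T in a read stands for a uridine in the RNA, and such added uridines are known products of terminal uridylyl transferases. This form made 18.9% of miR-143-3p counts in the stem cell library and 31.8% and 31.7% in Exo-AT replicates 1 and 2. All reads that end in a T the hairpin does not encode made 21.9% (interval 21.2 to 22.5), 36.8% (34.6 to 39.1) and 36.6% (35.9 to 37.3) of its counts. Among 22 nt reads with the usual start, the unencoded T outnumbered the encoded A by 5.96, 14.8 and 16.7 times. An unencoded A at the end was rare, at 0.238%, 0% and 0.0399%. An A added after base 21 cannot be seen, because the hairpin encodes A there. The encoded A counted above may therefore include added ones, and the share of all added A is not known.

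Most of these uridines followed base 21. Of the reads that end at base 21 of the arm, with or without a T added, 36.3% (interval 35.3 to 37.4) carried the T in the stem cell library and 47.0% (44.2 to 49.9) and 47.6% (46.7 to 48.5) in Exo-AT. Of the reads that end at base 20, 7.17% (6.54 to 7.87), 4.71% (2.50 to 8.71) and 5.79% (4.79 to 6.997) did (C21T). On the full 22 nt form the T was found in 2 counts against 482 without it in the stem cell library and in 0 counts in Exo-AT. A T added after base 19 cannot be seen, because the hairpin encodes T there.

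**Figure D4:**
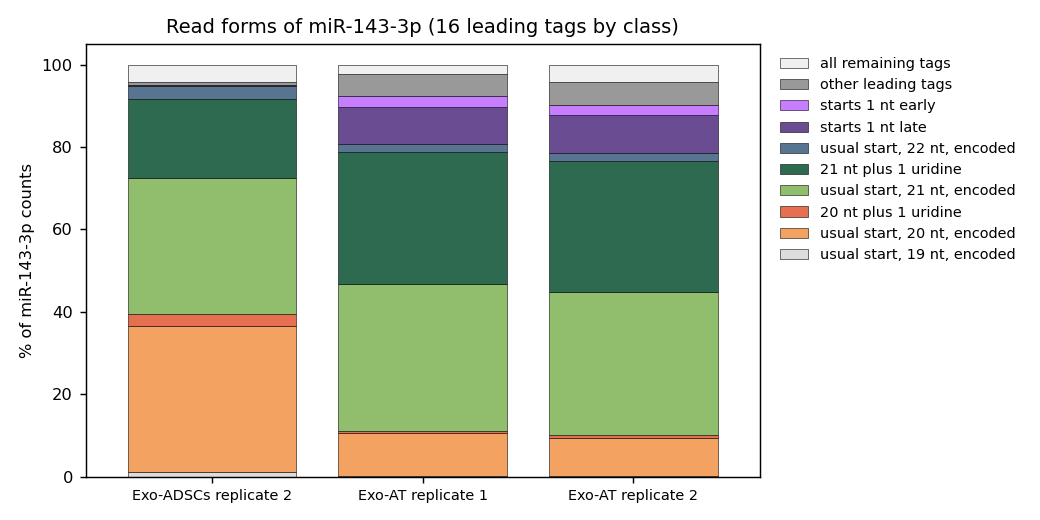
Percent of miR-143-3p counts in each class of read form, stacked per library from the 16 leading tags, with all remaining tags at the top. Exo-ADSCs replicate 2 has more of the encoded 20 nt form (35.5% against 10.3% and 9.24%), and both Exo-AT libraries have more of the 21 nt form with a uridine (31.8% and 31.7% against 18.9%) and of reads that start 1 nt late.

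Among named miRNAs, miR-143-3p supplied most of the reads with an unencoded last T. It held 83.5% of all such counts on named miRNAs in the stem cell library and 83.4% and 66.7% in Exo-AT replicates 1 and 2. Its own rate was the highest of the 12 well-covered miRNAs in each of the 3 libraries, where the median was 0.119%, 0.189% and 0.969%. miR-101a-3p was second in each of them, at 16.7%, 14.5% and 19.1%. It was not the highest rate of every named miRNA with at least 100 counts in a single library. miR-140-3p, a cartilage miRNA, stood above it in the stem cell library (47.4%, 44 miRNAs) and in Exo-AT replicate 2 (54.8%, 68 miRNAs), and miR-320-5p in the latter (49.4%). From Exo-ADSCs to the Exo-AT mean the rate of miR-143-3p gained 14.9 percentage points, the most of the 12, with a median of 0.363 points, and in 5 of the 12 both Exo-AT libraries were higher.

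The start of the arm was nearly fixed in Exo-ADSCs and looser in Exo-AT. The reads below are shown because their starts give other seeds, with capitals marking bases 2 to 8 of each read.
usual start: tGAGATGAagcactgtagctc
1 nt late: gAGATGAAgcactgtagctc
1 nt early, with an unencoded G: gTGAGATGaagcactgtagctc
Reads began at the annotated base in 98.9% of miR-143-3p counts in the stem cell library but 87.6% (interval 86.02 to 89.1) and 86.4% (85.9 to 86.9) in Exo-AT replicates 1 and 2. Reads that began 1 nt late made 0.244% (37 counts), 9.35% (165 counts) and 9.74% (1709 counts). Reads that began 1 nt early made 0.720%, 3.00% and 3.67%. Most of the early reads in Exo-AT carried a G as first base where the hairpin has a C (C1G, 2.49% and 2.42% of the arm's counts, and 0 counts in the stem cell library).

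Late starts were read on other miRNAs too. In the other named miRNAs together, reads 1 nt after the usual start made 5.25% of counts in the stem cell library and 8.29% and 8.51% in Exo-AT. Of the 12 well-covered miRNAs, 8 had more late starts in both Exo-AT libraries than in the stem cell library. The gain of miR-143-3p, 9.30 percentage points, was the highest of the 12, and their median was 3.09. miR-21-5p moved nearly as far, from 0.492% to 8.08% and 8.56%, while 2 of the 12, miR-10a-5p and miR-10b-5p, were lower in both Exo-AT libraries. These 2 held 1182 and 1897 of the 4306 late-start counts pooled above for the stem cell library, so they weigh heavily in its 5.25%. Late-start reads of miR-143-3p ended in the unencoded T in 48.5% (interval 41.0 to 56.1) and 41.0% (38.7 to 43.4) of counts in Exo-AT, and reads with the usual start in 36.9% (34.5 to 39.3) and 37.4% (36.6 to 38.2). In the stem cell library these values were 27.0% (15.4 to 43.0, of 37 counts) and 21.98% (21.3 to 22.7).

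**Figure D5:**
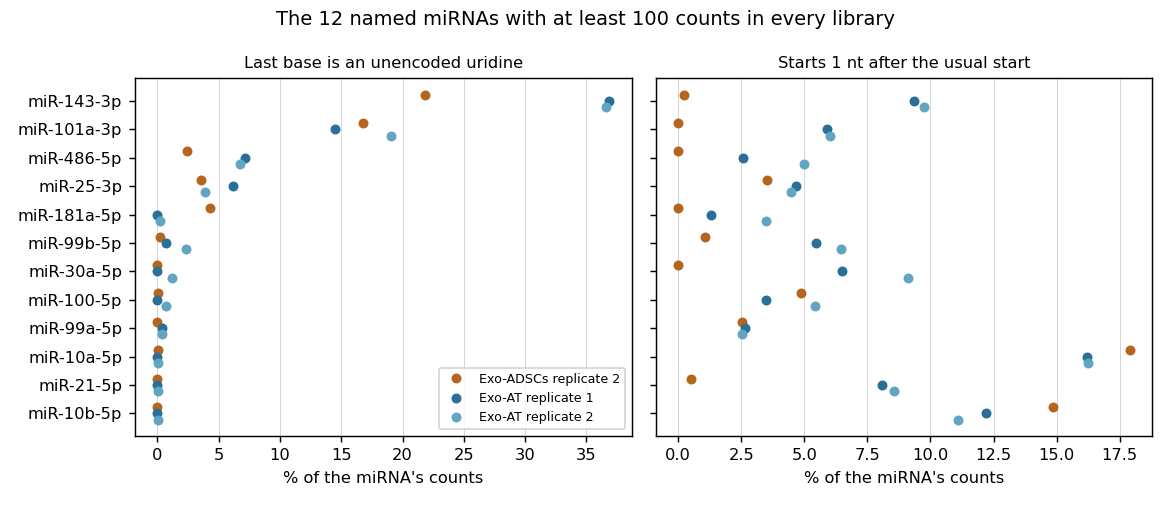
The 12 named miRNAs that had 100 counts or more in all 3 libraries: left, percent of each miRNA's counts that end in an unencoded uridine; right, percent that start 1 nt after the usual start. Points are single libraries; miR-143-3p is highest on the left in all 3 libraries (21.9%, 36.8% and 36.6%), and on the right it moves from 0.244% in Exo-ADSCs replicate 2 to 9.35% and 9.74% in Exo-AT.

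A base change inside the seed was also read in Exo-AT. The second base was T in place of G (G2T, counted from 1 at the read's 5′ end) in 4.59% and 5.08% of miR-143-3p counts in Exo-AT replicates 1 and 2 and in 0.502% in the stem cell library. Its leading read in Exo-AT was ttagatgaagcactgtagctc, with 60, 659 and 36 counts in that order. In the stem cell library the same read without its last base had 38 counts. Any mismatch at the second base made 0.529% and 1.18% of counts of the other named miRNAs in Exo-AT and 12.0% in the stem cell library. Of those 9843 counts in the stem cell library, let-7a-5p held 7921 (72.4% of its own counts) and miR-486-5p 1730 (54.1%). The first base differed from the hairpin in 4.14% and 3.83% of miR-143-3p reads from Exo-AT against 0.0264% in the stem cell library, and in 5.12% and 5.92% against 0.519% of the other named counts. Reads with no mismatch or indel made 53.5% and 52.5% of miR-143-3p counts in Exo-AT and 73.7% in the stem cell library. In the other named miRNAs the exact share was 86.9% and 80.7% in Exo-AT and 77.5% in the stem cell library. The files allow at most 1 mismatch, insertion or deletion per tag, so a read with both an added uridine and another change is not in these counts.

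The miRNAs whose level followed miR-143-3p most closely over the 3 libraries were miR-21-5p, a miRNA of growth and fibrosis, miR-181b-5p and miR-423-3p. Likeness was the distance between log2(CPM + 1) values after centring, over 48 candidates with at least 10 counts in every library, and it was 0.12, 0.19 and 0.20 log2 units. miR-21-5p was at 44306 CPM in the stem cell library and 23476 and 21855 CPM in Exo-AT. For miR-145-5p the nearest, let-7a-5p, lay 4.62 log2 units away. Every candidate had at least 10 counts in Exo-AT replicate 1, where miR-145-5p had 0. The choice of candidates thus fixed a large distance in advance, and whether another miRNA shares its pattern cannot be read from it.

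Other miRNAs known to shape the smooth muscle phenotype moved in both directions. This list had 15 forms in the fit, with 3 called higher in Exo-AT, 5 lower and 7 not called (edgeR), and their median log2 fold change was -0.97 against 0.37 over all 183. Over all 183, 19.1% were called higher and 19.1% lower, so 3 of 15 higher is close to the share of all tested miRNAs. The 4 with the most counts were miR-10a-5p at -0.41 (not called), miR-100-5p at -3.13, miR-21-5p at -0.97 and miR-26a-5p at 2.50. Of the pro-adipogenic list, 4 of 15 forms were higher and 6 lower, with a median of 0.14, and of the anti-adipogenic list 1 of 9 was higher and 3 lower, with a median of -0.23, beside the same 19.1% of all tested miRNAs in each direction. Among the former miR-21-5p, miR-26a-5p, miR-30a-5p and miR-30d-5p had the most counts, and among the latter miR-22-3p, miR-27a-3p, miR-221-3p and miR-27b-3p. With forms at 0 counts in one group set to 3 counts over that group, these medians were the same.

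Summed marker levels of other cell types differed between the libraries to varying degrees, and their part in the values of the cluster was not tested. The endothelial miR-126a arms took 0.0329% of named counts in the stem cell library and 0.383% and 0.510% in Exo-AT, with 1 of 2 tested forms called higher (edgeR). The erythroid miR-451, miR-486 and miR-144 took 3.35%, 5.10% and 16.7%, most of it miR-486-5p. That arm was at 49869 CPM in the stem cell library, between the 36676 and 153191 CPM of Exo-AT. Of its reads in the stem cell library 6.91% were exact and 9.78% had the usual start. In Exo-AT 51.7% and 57.9% were exact, and 94.8% and 90.4% had the usual start. The striated muscle list took 0.0267%, 0.230% and 0.162%, the leukocyte list 0.0154%, 0.0657% and 0.114% and the epithelial list 0.239%, 0.230% and 0.136%. Called higher in Exo-AT were 1 of 2 tested erythroid (miR-486-5p), 1 of 3 striated muscle, 1 of 3 leukocyte and 1 of 5 epithelial forms. Called lower was 1 epithelial form. Beside these counts, 19.1% of all 183 tested miRNAs were called higher and 19.1% lower, and the marker lists are too short to be set apart from that share. The mesenchymal stromal miR-199a, miR-214, miR-10b and miR-22 took 15.1%, 25.6% and 27.9%, most of it miR-10b-5p, which was not called (log2 fold change 0.11). Of its 6 tested forms 0 were called higher and 2 lower, miR-22-3p at -3.68 and miR-214-3p at -4.06, and the median was -0.16. Of these lists 2 striated muscle families had no count in any library. In such mixed RNA, a different share of vesicles from cells rich in miR-143 and a different amount of miR-143 per vesicle cannot be told apart, whichever scale is used.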

How the data were processed

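The members, lists and comparisons were chosen with earlier results of these data known. Per the labels' protocols, small RNA (inserts of some 15 to 35 nt after PCR) was sequenced on a HiSeq. Novoalign 2.07.11 and the rn6 build come from the submitters' processing notes, and how adaptors were trimmed is not given in the sources. The authors deposited whole-number counts per tag and hairpin, with reads of a tag on several hairpins divided between them and no tag under 2 reads. The file of Exo-ADSCs replicate 1 itself holds a summary without values per miRNA and was not used. In a table of 45 miRNAs raised in Exo-AT, the authors deposited normalized reads of all 4 libraries (a score here, factor not stated), and neither miR-143 nor miR-145 is in it.

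Tags on named hairpins were summed to arms by their midpoint, after removing the 5 bases the files count before the hairpin, which gave 348 miRNAs. The two-sided quasi-likelihood test of edgeR 4.0.16 in R 4.3.3 used TMM factors of 0.664, 1.39 and 1.08, a filter at a minimum count of 10 (total 15) and a threshold of 0.05, with 1 residual degree of freedom. DESeq2 1.42.0 and limma 3.58.1 were alternatives, as were other scalings, filters and tag choices. A tag's last base was called unencoded where the files give a mismatch at its final position. Shares have Wilson 95% intervals (scipy 1.17.1). A count of 0 allows up to 3 counts. Over named counts without TMM scaling that is 30.9, 328 and 22.1 CPM in Exo-ADSCs replicate 2, Exo-AT replicate 1 and Exo-AT replicate 2. These limits are not on the scale of the TMM-scaled levels. Named were all arms of both hairpins, at most 4 members per list with the highest counts, the 3 nearest in pattern to each leading arm, and the most abundant miRNAs for read forms. miR-140-3p and miR-320-5p were named after their values were seen.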

Additional observations from a re-analysis of the deposited data

How the results depend on the processing

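For miR-143-3p the log2 fold change (-0.87) changed sign with total counts of named miRNAs (0.042) and of all hairpins (2.33). It was no longer called with the most common tag only (-0.84), tags aligned to 1 hairpin (-0.72), predicted hairpins added (-0.84), DESeq2 (-1.11) or limma-trend (-0.87). Without one Exo-AT library it ranged from -0.98 to -0.72, with no test. For miR-145-5p (-2.24) it was -2.57 and called with DESeq2 size factors, 0.92 with all hairpins, and ranged from -7.35 to -1.88 without one Exo-AT library. The -7.35 (without Exo-AT replicate 2) is set by the prior count, since the other library has 0. For miR-145-3p the range was -6.08 to -3.34. miR-145-3p fell below the filter with tags of 20 to 25 nt, the most common tag, predicted hairpins added and all-hairpin scaling, and miR-145-5p with the most common tag. Calls over all miRNAs were 35 higher and 35 lower, 0 and 0 with predicted hairpins added (25 at an unadjusted p under 0.05, edgeR), 107 and 5 with all-hairpin scaling, 22 and 21 with DESeq2 and 7 and 16 with limma-trend. Total named counts gave 46 and 19.

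Values below follow Exo-ADSCs replicate 2, Exo-AT replicate 1 and Exo-AT replicate 2. The 20 nt share of miR-143-3p was 48.4%, 24.2% and 24.1% in exact tags and 34.7%, 17.2% and 22.4% with each distinct tag counted once. With tags counted once the unencoded T share was 6.93%, 10.3% and 6.54% and the late-start share 2.97%, 20.7% and 11.2% (10.7% in exact tags of Exo-AT replicate 2). The share of miR-143-3p in named counts was 34.4%, 23.3% and 14.8% in tags of 20 to 25 nt, 14.9%, 12.8% and 8.79% in exact tags, and 2.12%, 11.6% and 9.69% over all hairpins. miR-145 made 0.127%, 0% and 0.0938% of the cluster in tags of 20 to 25 nt, and 0.411%, 0% and 0.260% in exact tags. Causes of these shifts were not tested. No paired analysis was possible because the labels give no pairing between libraries of the groups. Depth limits Exo-AT replicate 1 most.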
